A study of Mus musculus with 24 samples.

Results

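The genes described here encode the machinery that folds, checks and exports secreted and membrane proteins in the endoplasmic reticulum (ER), together with the regulators that respond when that machinery is overloaded. The list holds 34 genes, of the 16593 genes that the array's annotation names. They are 11 lumenal chaperones and their partners, 4 disulfide isomerases, 3 regulators and degradation (ERAD) genes, 4 genes of the Atf4 branch, 6 genes of the translocon and its TRAP complex, 3 genes of the COPII coat and 3 KDEL receptors. A listed gene was described if any of its probes reached a detection p below 0.01 on 2 or more arrays of its set. Of the 34 genes, 31 had a probe in the annotation used, and 26 passed in the Rag1-/- set of 8 arrays and 21 in the set of 16 WT and PHIL arrays. Dnajb11, Sdf2l1 and Atf6 had no probe with that name, Canx, Hyou1, Trib3 and Ssr1 were detected on no array, and Sec24d was detected on 1 array. Hspa5, Kdelr1, Manf, Pdia6 and Sec23b passed in the Rag1-/- set only, and the 21 others passed in both sets. Manf, Pdia6 and Sec23b passed in that set only through the arrays at 7 dpi.

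Whole diaphragm RNA was hybridised to Illumina MouseRef-8 v2.0 arrays, with 1 array per mouse. Mice of 3 strains on a C57BL/6 background were naive (2 arrays per strain) or had received 25000 Trichinella spiralis newborn larvae (NBL) into the retro-orbital vein 2 or 7 days before (3 arrays per strain and time), and times are given as days post injection (dpi). Rag1-/- mice lack mature T and B cells, WT mice were purchased C57BL/6 controls, and PHIL mice are a transgenic line whose eosinophils are ablated by a toxin gene driven from an eosinophil peroxidase promoter. The ages and sexes of these mice are not given in the sources used here. Median bead signal was 295.1 to 333.4 on the Rag1-/- arrays and 106.3 to 131.9 on the WT and PHIL arrays, and 10340 to 11740 probes were detected against 8847 to 10627. The sets were therefore normalised apart, levels are compared only within a set, and set and strain cannot be told apart. Hspa5 and Kdelr1 were detected on 8 of 8 Rag1-/- arrays and on 0 of 16 others, a contrast that carries the same limit. The Rag1 probe was detected on no Rag1-/- and no WT array, and the eosinophil markers Siglecf, Prg2, Epx, Ccr3 and Il5ra on no array of any strain, so that neither checks the strain labels. Probes of 6 T cell markers were detected on no Rag1-/- array, whereas 4 of the 6 were detected in WT at 7 dpi. The Y-linked gene Eif2s3y was detected on all 8 Rag1-/- arrays (signal 664.2 to 946.6), but in the other set on 1 of 2 WT naive, 1 of 3 WT 2 dpi, 2 of 3 WT 7 dpi and 2 of 3 PHIL 7 dpi arrays and on none of the remaining PHIL arrays. Its signal thus varied between arrays of 1 group in that set, and its part in the changes below was examined only by entering it as a covariate.

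A protein bound for secretion enters the ER through the Sec61 channel, is folded there by chaperones and disulfide isomerases, and leaves in COPII vesicles. Resident chaperones that escape are brought back by KDEL receptors. When unfolded protein accumulates, sensors in the ER membrane act through Xbp1 and Atf6 to raise chaperone genes and through translation control to raise Atf4, whose targets include Ddit3 (also known as CHOP), Trib3 and Chac1. Xbp1 and Atf6 act through short promoter elements, the ER stress response element (ERSE, a CCAAT and a CCACG box 9 bases apart), ERSE-II (an ATTGG and a CCACG box 1 base apart) and the unfolded protein response element (UPRE, TGACGTGG). Atf4 acts with C/EBP factors through a composite element (here TGATGCAAT).

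Promoters of 28 of the 34 genes were matched by symbol in RefSeq (build GRCm38.p6), as 300 bases from 250 before to 50 after the annotated start, and these elements were searched on both strands. ERSE was found in 39 of 32851 mouse promoters (0.119%) and in those of 7 of the 24 matched folding and transport genes, namely Hspa5, Hsp90b1 (2 copies), Calr, Canx, Dnajc3, Creld2 and Pdia6. ERSE-II was found in 0.0365% of all promoters, and here in Dnajb11 and Herpud1. UPRE, which holds CCACG on its other strand, was found in 0.676% of all promoters, and here in Kdelr3 and Sec24d. CCACG, which is part of all 3 elements, was found in 32.8% of all promoters, and the composite Atf4 element in 0.192% of all promoters and in none of the 4 Atf4 branch genes or the 24 others. Promoters of the genes on which the comparisons below turn are shown, 5′ to 3′ on the gene's strand, with ERSE and UPRE matches in capitals. Hsp90b1 (chr10:86705395-86705694, minus strand) has ERSE 212 and 107 bases before the start, Calr (chr8:84846882-84847181, minus strand) has it 162 and Creld2 (chr15:88819396-88819695, plus strand) 126 bases before. These are the genes that were raised at 2 dpi in WT and PHIL muscle and carry the element. Pdia3, Pdia4 and Xbp1 were raised there too and had no ERSE, ERSE-II or UPRE in this window, nor had Dnajb9, which was raised in WT. Dnajc3 carries ERSE and was not called at 2 dpi in either strain. A link between the elements and the changes was not tested.
Hsp90b1: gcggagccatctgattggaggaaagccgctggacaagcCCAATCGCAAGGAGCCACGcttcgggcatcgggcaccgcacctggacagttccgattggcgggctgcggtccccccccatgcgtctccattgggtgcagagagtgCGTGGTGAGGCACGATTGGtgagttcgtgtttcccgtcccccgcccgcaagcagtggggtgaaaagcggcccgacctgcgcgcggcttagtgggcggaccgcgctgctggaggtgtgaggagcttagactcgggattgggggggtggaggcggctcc
Calr: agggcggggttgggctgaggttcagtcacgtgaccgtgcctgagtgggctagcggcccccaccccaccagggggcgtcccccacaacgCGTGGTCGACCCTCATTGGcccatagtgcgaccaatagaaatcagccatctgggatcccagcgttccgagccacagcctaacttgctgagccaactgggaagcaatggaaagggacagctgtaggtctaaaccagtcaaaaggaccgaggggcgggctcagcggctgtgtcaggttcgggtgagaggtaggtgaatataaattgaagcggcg
Creld2: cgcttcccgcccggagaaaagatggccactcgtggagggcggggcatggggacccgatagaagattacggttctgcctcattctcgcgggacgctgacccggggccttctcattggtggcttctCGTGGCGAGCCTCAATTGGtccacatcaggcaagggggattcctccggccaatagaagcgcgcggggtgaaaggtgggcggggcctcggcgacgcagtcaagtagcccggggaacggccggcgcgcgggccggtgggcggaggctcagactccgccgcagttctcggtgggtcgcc
Kdelr3 (chr15:79516158-79516457, plus strand) has UPRE 30 bases before the start, and Pdia5 (chr16:35490824-35491123, minus strand) has none of the elements in this window. They had the largest rises at 7 dpi. Ddit3 (chr10:127290543-127290842, plus strand) is shown for the Atf4 branch and has none of the elements in this window.
Kdelr3: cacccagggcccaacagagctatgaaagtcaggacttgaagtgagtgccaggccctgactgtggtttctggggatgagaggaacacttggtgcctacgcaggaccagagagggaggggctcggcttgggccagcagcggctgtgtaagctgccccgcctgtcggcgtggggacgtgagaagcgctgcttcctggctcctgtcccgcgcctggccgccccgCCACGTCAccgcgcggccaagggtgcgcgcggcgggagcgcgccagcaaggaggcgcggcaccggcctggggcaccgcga
Pdia5: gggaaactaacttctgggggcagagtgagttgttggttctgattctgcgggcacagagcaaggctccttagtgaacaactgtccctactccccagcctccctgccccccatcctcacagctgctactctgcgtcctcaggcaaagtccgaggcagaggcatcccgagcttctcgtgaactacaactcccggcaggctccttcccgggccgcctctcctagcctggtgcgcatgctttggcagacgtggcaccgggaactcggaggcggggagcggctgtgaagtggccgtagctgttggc
Ddit3: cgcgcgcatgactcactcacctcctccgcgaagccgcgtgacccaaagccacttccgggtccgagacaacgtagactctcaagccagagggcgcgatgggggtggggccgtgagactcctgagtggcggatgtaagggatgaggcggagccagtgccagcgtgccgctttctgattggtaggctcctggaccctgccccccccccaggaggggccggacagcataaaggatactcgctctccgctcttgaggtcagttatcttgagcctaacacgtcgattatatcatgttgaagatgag

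The first question was which of these genes changed after larvae reached the muscle of WT mice. At 2 dpi the chaperones Hsp90b1, Calr, Dnajb9 and Creld2, the isomerases Pdia3 and Pdia4 and the regulator Xbp1 were higher than in naive WT muscle, by 1.60- to 2.66-fold. At 7 dpi Hsp90b1, Calr, Creld2 and Pdia3 were still higher, and Pdia5, Sec61a1, Kdelr2 and Kdelr3 had joined them, by 1.58- to 3.30-fold, whereas Dnajb9, Pdia4 and Xbp1 were no longer called. Genes were called at an adjusted p of at most 0.05 (limma, Benjamini-Hochberg over all genes tested) and a change of at least 1.5-fold. At 2 dpi 7 of the 21 members tested were higher, against 13.1% of all 8226 genes, and 1 was lower, against 10.3%. At 7 dpi 8 were higher, against 16.3% of all genes, and 1 was lower, against 11.8%. The median log2 change of the 21 members was 0.43 at 2 dpi and 0.47 at 7 dpi, where that of all genes was -0.05 and -0.06. Over the same times the summed level of macrophage markers went from 2215 to 2464 in naive muscle to 8461 to 9480 at 2 dpi, and its part in these changes was not tested. In whole muscle, more cells of a type cannot be told apart from more RNA per cell.

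Hsp90b1 encodes the ER form of the Hsp90 chaperone, also called GRP94. Its log2 normalised signal was 10.04 and 10.01 in naive WT muscle, 11.56, 11.34 and 11.25 at 2 dpi and 10.61, 11.27 and 10.63 at 7 dpi. Every infected array was above both naive arrays, as held for 27.9% of all genes at 2 dpi and 29.2% at 7 dpi. For Hsp90b1, 1 array at 7 dpi reached the range of those at 2 dpi. The change was 1.36 ± 0.21 (SE) at 2 dpi (2.56-fold, adjusted p = 0.00029) and 0.81 ± 0.21 at 7 dpi (1.75-fold, adjusted p = 0.00739). Creld2, a secreted ER stress response protein with isomerase activity, read 7.33 and 7.42 in naive muscle, 8.78, 8.94 and 8.63 at 2 dpi and 8.17, 8.68 and 8.19 at 7 dpi. It was 2.66-fold higher at 2 dpi (log2 1.41 ± 0.20, adjusted p = 0.000108) and 1.96-fold higher at 7 dpi (adjusted p = 0.00133), with no overlap between naive and infected arrays. Both of its probes moved alike, with log2 changes at 2 dpi of 1.41 and 1.5. Calr encodes calreticulin, the lectin chaperone of glycoproteins. It read 8.29 and 9.14 in naive muscle, 9.98, 10.02 and 9.48 at 2 dpi and 9.41, 9.64 and 9.60 at 7 dpi, a rise of 2.16-fold (adjusted p = 0.00126) and of 1.79-fold (adjusted p = 0.00627). The naive arrays lay further apart for Calr than for Hsp90b1, and without WT naive replicate 1 the 7 dpi change was no longer called (adjusted p = 0.132).

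Dnajb9, a co-chaperone of Hspa5 and a target of Xbp1, read 7.15 and 6.30 in naive WT muscle (detected on 1 of 2 arrays), 7.91, 7.43 and 7.36 at 2 dpi and 6.59, 7.26 and 6.87 at 7 dpi. All 2 dpi arrays stood above both naive arrays, and those at 7 dpi overlapped with naive. The rise at 2 dpi (log2 0.84 ± 0.25, adjusted p = 0.0151) was not called without WT naive replicate 2 (adjusted p = 0.254) or without WT 2 dpi replicate 1 (adjusted p = 0.0542), and was under the fold threshold without background correction (log2 0.50). Xbp1 encodes the transcription factor of the Ire1 branch, and the array reads its total transcript, not its splicing. It read 11.48 and 11.53 in naive muscle, 12.05, 12.26 and 12.24 at 2 dpi and 11.51, 11.84 and 11.40 at 7 dpi. The level was 1.60-fold higher at 2 dpi (log2 0.68 ± 0.13, adjusted p = 0.00148), and at 7 dpi the arrays overlapped with naive (log2 0.08 ± 0.13, adjusted p = 0.639). Dnajc3, an inhibitor of the kinase PERK, had a log2 change of 0.37 at 2 dpi (adjusted p = 0.0303), under the fold threshold. Herpud1, an ERAD component, had -0.22 at 2 dpi and -0.14 at 7 dpi, and neither passed.

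The isomerases were called at different times. Pdia3, the glycoprotein-specific isomerase, read 10.39 and 10.21 in naive WT muscle, 11.47, 11.75 and 11.40 at 2 dpi and 11.27, 11.79 and 11.53 at 7 dpi. It was 2.37-fold higher at 2 dpi (adjusted p = 3.3e-05) and 2.35-fold higher at 7 dpi (adjusted p = 2.5e-05). Pdia4 read 8.77 and 8.69 in naive muscle, 9.95, 9.87 and 9.56 at 2 dpi and 9.01, 9.57 and 9.02 at 7 dpi. It was 2.09-fold higher at 2 dpi (log2 1.06 ± 0.16, adjusted p = 0.000241) and fell from 2 dpi to 7 dpi by 0.59 on the log2 scale (adjusted p = 0.006). Pdia5 read 6.71 and 7.14 in naive muscle, 7.45, 7.48 and 7.40 at 2 dpi and 8.54, 8.88 and 8.52 at 7 dpi. The 3 groups did not overlap, and the lowest array at 7 dpi stood above the highest at 2 dpi. The rise at 2 dpi was under the fold threshold (log2 0.52 ± 0.14, adjusted p = 0.0101), and that at 7 dpi was 3.30-fold (log2 1.72 ± 0.14, adjusted p = 8.11e-07). A second detected probe of Pdia5 gave a log2 change of 1.81 at 7 dpi, and another was detected on no array and gave 0.04.

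Both KDEL receptors tested and 1 of 5 translocon and TRAP genes were higher at 7 dpi in WT muscle, and none of them was called at 2 dpi. The share of all genes that were higher was 16.3% at 7 dpi and 13.1% at 2 dpi. Kdelr3, a receptor that returns escaped ER residents from the Golgi, read 7.75 and 7.61 in naive WT muscle, 8.54, 8.40 and 7.69 at 2 dpi and 9.10, 9.35 and 9.18 at 7 dpi. The 2 dpi arrays ranged from the naive level, where replicate 3 lay, up to 8.54, below every 7 dpi array. Its level was 2.89-fold higher at 7 dpi than in naive muscle (log2 1.53 ± 0.19, adjusted p = 2.58e-05) and 2.00-fold higher than at 2 dpi (adjusted p = 0.00042). Kdelr2 read 7.07 and 7.29 in naive muscle, 7.57, 7.37 and 7.32 at 2 dpi and 8.14, 7.96 and 7.95 at 7 dpi, a rise of 1.79-fold at 7 dpi (adjusted p = 0.000208) that was under the fold threshold without background correction (log2 0.57). Sec61a1, the pore of the translocon, had a log2 change of 0.19 at 2 dpi (adjusted p = 0.264) and of 0.66 ± 0.13 at 7 dpi (1.58-fold, adjusted p = 0.00146). The rise of Sec61a1 was under the fold threshold without background correction (log2 0.51), with the authors' normalised values (0.51), without WT naive replicate 2 (0.579) and without WT 7 dpi replicate 2 (0.588). The TRAP subunits Ssr2, Ssr3 and Ssr4, which assist entry of the chain, and the COPII coat gene Sec13 had log2 changes of 0.05 to 0.58 at both times and none passed the fold threshold. The probe used for Sec61b in this set was detected on 1 of 8 WT arrays, and its other probe, detected on all 16 arrays of the set, gave -0.09 at 2 dpi and 0.10 at 7 dpi.

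**Figure D1:**
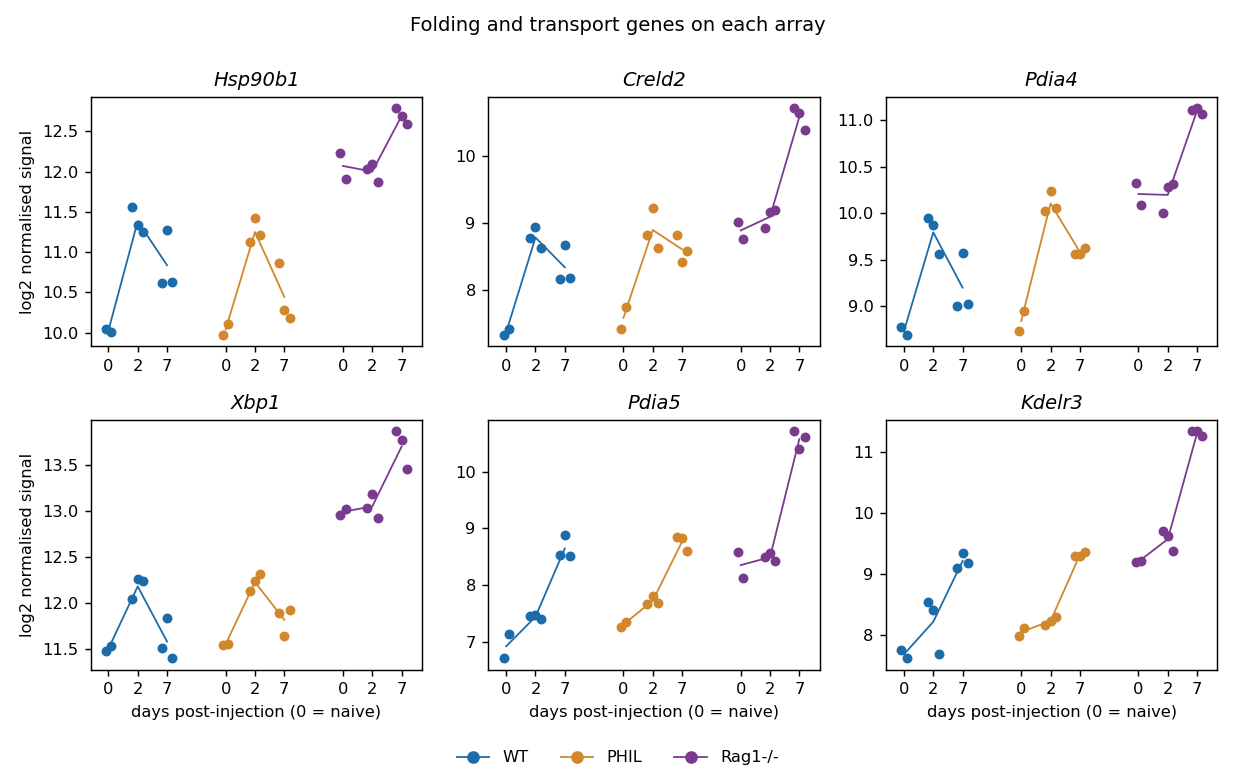
Log2 normalised signal (y axis) of 6 folding and transport genes on each array, against days post injection (x axis; 0 stands for naive) for WT, PHIL and Rag1-/- mice; points are arrays and lines join group means. In WT and PHIL, Hsp90b1, Creld2, Pdia4 and Xbp1 stood highest at 2 dpi and Pdia5 and Kdelr3 at 7 dpi, whereas in Rag1-/- all 6 were highest at 7 dpi; levels of Rag1-/- and of the other strains come from separate normalisations and are not comparable.

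The 2 times were also compared directly in WT muscle. Pdia5 (2.30-fold), Kdelr3 (2.00-fold) and Kdelr2 (1.51-fold) were higher at 7 dpi, 3 of 21 members against 10.6% of all genes. Dnajb9, Pdia4, Xbp1 and Ddit3 were lower, by 1.58-, 1.51-, 1.51- and 1.91-fold, 4 of 21 against 8.05% of all genes. The split of 3 higher and 4 lower was 2 higher and 1 lower without background correction, with the authors' normalised values or with an offset of 50, and 3 higher and 2 lower after scaling to a common median. It was 2 higher and 2 lower with the Eif2s3y level as a covariate. Leaving out WT 7 dpi replicate 1 left 3 calls, and leaving out WT 7 dpi replicate 3 or WT 2 dpi replicate 2 left 4. Hsp90b1 had a log2 change of -0.55 (adjusted p = 0.0373), just under the fold threshold, and Creld2 of -0.44 (adjusted p = 0.0601).

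The second question was whether the same genes moved in PHIL muscle, which lacks eosinophils. In PHIL mice Hsp90b1, Calr, Creld2, Pdia3, Pdia4 and Xbp1 were higher at 2 dpi, 6 of 21 members against 10.6% of all genes, and 0 were lower, against 7.94%. At 7 dpi Calr, Creld2, Pdia3, Pdia4, Pdia5, Sec61a1, Ssr2, Kdelr2 and Kdelr3 were higher, 9 of 21 against 14.9%, and Ddit3 was lower, 1 of 21 against 11.6%. Hsp90b1 read 9.97 and 10.11 in naive PHIL muscle, 11.12, 11.42 and 11.21 at 2 dpi and 10.87, 10.28 and 10.18 at 7 dpi. All infected arrays were above the naive ones, as held for 25.7% of all genes at 2 dpi and 28.8% at 7 dpi. The rise of Hsp90b1 was called at 2 dpi only (2.31-fold, adjusted p = 0.000951), and not at 7 dpi (1.32-fold, adjusted p = 0.141). Pdia4 read 8.73 and 8.95 in naive PHIL muscle, 10.02, 10.24 and 10.05 at 2 dpi and 9.56, 9.56 and 9.63 at 7 dpi, 2.40-fold and 1.67-fold higher (adjusted p = 6.9e-05 and 0.0026). Pdia5 read 7.27 and 7.35 in naive muscle, 7.67, 7.82 and 7.69 at 2 dpi and 8.86, 8.84 and 8.61 at 7 dpi, a rise of 2.75-fold at 7 dpi (adjusted p = 4.1e-06). Kdelr3 read 7.99 and 8.10 in naive muscle, 8.16, 8.22 and 8.30 at 2 dpi and 9.29, 9.30 and 9.35 at 7 dpi. Its 2 dpi arrays lay close above naive (log2 0.18, adjusted p = 0.496), and all 7 dpi arrays lay far above (2.40-fold, adjusted p = 0.000142). From 2 dpi to 7 dpi Pdia5, Kdelr2 and Kdelr3 rose further (3 of 21 against 10.7% of all genes), and Hsp90b1, Dnajb9 and Ddit3 fell (3 of 21 against 9.57%). That split was 2 higher and 1 lower without background correction or with the authors' normalised values, and 4 higher and 1 lower after scaling to a common median. The fall of Dnajb9 was not called under 11 of 29 alternatives, among them each fit without 1 of the PHIL arrays at 2 dpi or 7 dpi. At 7 dpi against naive, Ssr2 and Kdelr2 were under the fold threshold in PHIL without background correction (log2 0.549 and 0.491), with the authors' normalised values (0.553 and 0.486) and with an offset of 50 (0.574 and 0.587). Ssr2 was also not called without PHIL naive replicate 1 (adjusted p = 0.0521), PHIL 7 dpi replicate 1 (log2 0.518) or WT 2 dpi replicate 1 (0.59), nor Kdelr2 without PHIL naive replicate 2 (log2 0.494).

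No member was called between PHIL and WT muscle. At 2 dpi 0 of 21 were called, against 0% of all genes (limma), with 2 members at an unadjusted p under 0.05 and log2 differences of -0.55 to 0.36. At 7 dpi 0 of 21 were called, against 0.0851% of all genes higher and 0.401% lower, with 2 members at an unadjusted p under 0.05 and log2 differences of -0.47 to 0.38. The standard errors of these differences were 0.09 to 0.39 and their median 0.13, so that small differences were not detectable with these arrays. The change from naive was also compared between the strains, and 0 of 21 members were called at either time, with 0 members at 2 dpi and 1 at 7 dpi at an unadjusted p under 0.05. Of all genes, 0.0122% had a larger change in PHIL at 2 dpi, and 0% were called at 7 dpi (limma). The widest gap was that of Chac1 at 7 dpi, a log2 difference of 1.66 ± 0.61 (adjusted p = 0.391).

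**Figure D2:**
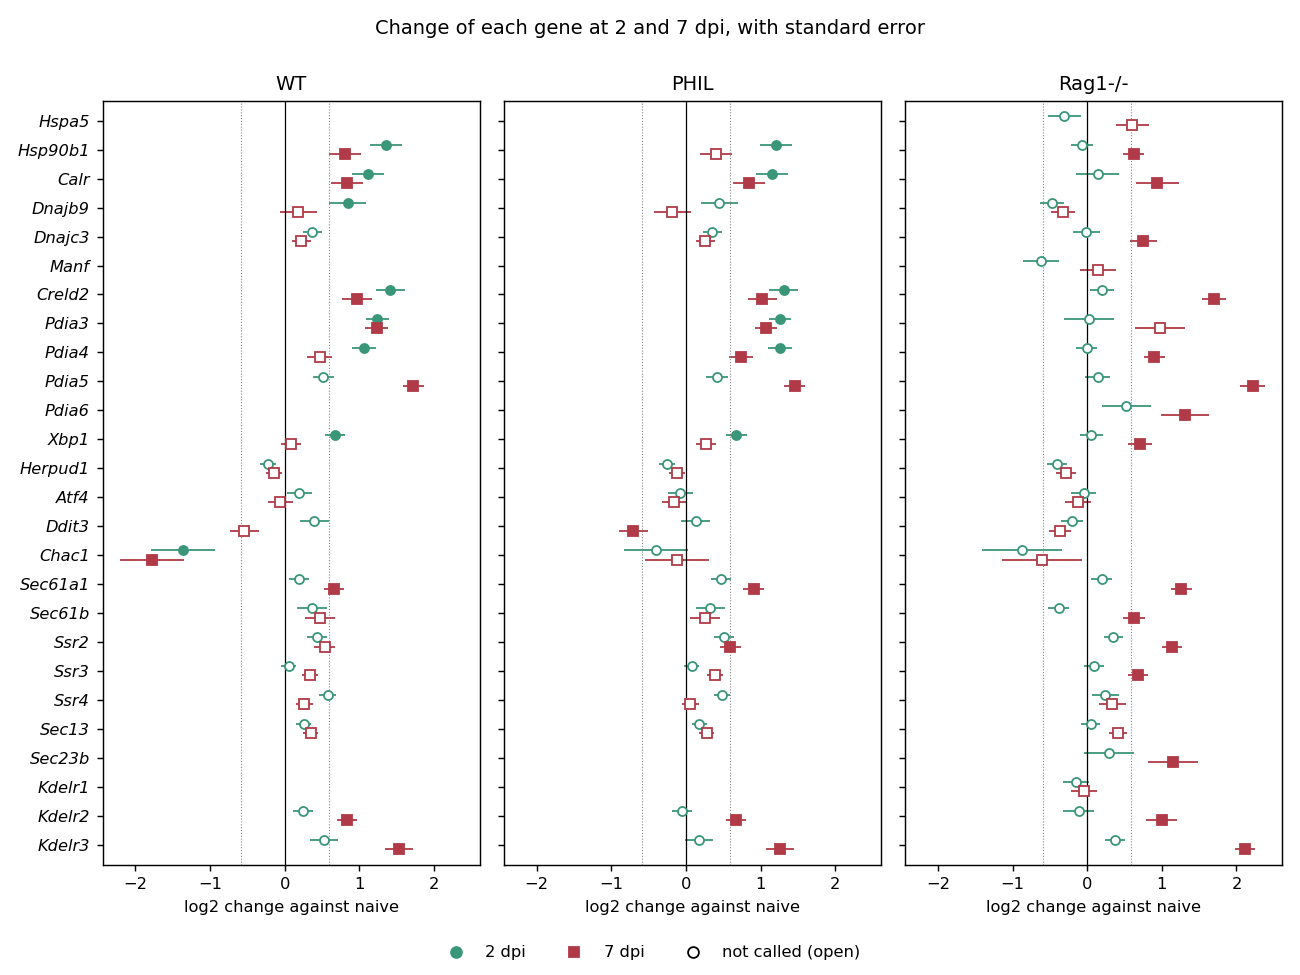
Log2 change against naive muscle (x axis) of each tested gene (y axis) at 2 dpi (circles) and 7 dpi (squares) in WT, PHIL and Rag1-/- mice; bars are standard errors, filled symbols were called and dotted lines mark the 1.5-fold threshold. At 2 dpi 7 genes of WT and 6 of PHIL lie filled to the right and none of Rag1-/-, where 15 do at 7 dpi.

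The third question was how the genes moved in muscle of Rag1-/- mice, which lack mature T and B cells. At 2 dpi none of the 26 members tested was called, against 6.8% of all 8660 genes higher and 3.05% lower (limma), although 6 had an unadjusted p under 0.05. The lowest adjusted p was 0.0543, for Herpud1 (log2 -0.41), and the median change of the members was 0.01. At 7 dpi 15 of 26 were higher, against 17.6% of all genes, and 0 were lower, against 14.9%. Pdia6 and Sec23b are among these 15 and passed the filter on detection only through the 7 dpi arrays, so that the filter set their direction. With only genes detected on 4 or more of the 8 arrays, which left the 23 members detected on all 8, 13 were higher, against 16.9% of all 7952 genes, and 0 were lower, against 16.2%. The median log2 change of the 23 was 0.675, where that of all these genes was -0.11. The 15 were Hsp90b1, Calr, Dnajc3, Creld2, Pdia4, Pdia5, Pdia6, Xbp1, Sec61a1, Sec61b, Ssr2, Ssr3, Sec23b, Kdelr2 and Kdelr3. Against 2 dpi, 14 of 26 were higher at 7 dpi, against 13.9% of all genes, and 0 were lower, against 9.02%. These 14 include Manf, which also passed only through the 7 dpi arrays, and with only genes detected on 4 or more arrays 14 of 23 were higher, against 12.8%, and 0 lower, against 9.76%. Without Rag1-/- naive replicate 1, 9 members were called at 7 dpi against naive. With the Eif2s3y level as a covariate 3 were called (Creld2, Pdia5 and Kdelr3). That gene's signal itself was 892.1 to 946.6 on the naive, 696.1 to 839.8 on the 2 dpi and 664.2 to 765.3 on the 7 dpi arrays. The covariate thus follows infection in this set, and the 2 cannot be told apart. The number of all genes called under these fits is not given here, so the losses are not read as particular to the members.

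Pdia5 had the largest rise in Rag1-/- muscle. It read 8.58 and 8.13 in naive muscle, 8.49, 8.57 and 8.42 at 2 dpi and 10.71, 10.40 and 10.61 at 7 dpi. The naive and 2 dpi arrays overlapped, and every 7 dpi array stood far above them (4.65-fold, log2 2.22 ± 0.17, adjusted p = 0.000129). Kdelr3 read 9.19 and 9.21 in naive muscle, 9.71, 9.62 and 9.38 at 2 dpi and 11.34, 11.34 and 11.26 at 7 dpi. It was 4.32-fold higher at 7 dpi (log2 2.11 ± 0.13, adjusted p = 6.16e-05), and its 2 dpi arrays lay above the naive ones without being called (log2 0.37, adjusted p = 0.0724). At 2 dpi 19.1% of all genes were higher without overlap. Creld2 read 9.02 and 8.77 in naive muscle, 8.92, 9.16 and 9.21 at 2 dpi and 10.72, 10.65 and 10.39 at 7 dpi, a rise of 3.24-fold at 7 dpi (adjusted p = 0.000302). These 3 genes were called at 7 dpi in all strains and with each array left out in turn in their own set.

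Hsp90b1, which stood highest at 2 dpi in the other strains, read 12.23 and 11.91 in naive Rag1-/- muscle, 12.03, 12.10 and 11.87 at 2 dpi and 12.79, 12.69 and 12.59 at 7 dpi. The 2 dpi arrays fell among the naive ones (log2 -0.07 ± 0.15, adjusted p = 0.768), and those at 7 dpi were 1.54-fold higher (adjusted p = 0.0157). This rise was not called without Rag1-/- naive replicate 2 (adjusted p = 0.113), without Rag1-/- 7 dpi replicate 1 (adjusted p = 0.0518) or after scaling to a common median (adjusted p = 0.066). Hspa5 encodes BiP, the main chaperone of the ER and a standard marker of the stress response. It read 9.29 and 9.06 in naive muscle, 8.54, 9.16 and 8.90 at 2 dpi and 10.05, 9.51 and 9.75 at 7 dpi. Its 7 dpi arrays were above all others, a difference that was called against 2 dpi (1.88-fold, adjusted p = 0.0113) and not against naive (1.52-fold, adjusted p = 0.0765). Likewise 23.5% of all genes were higher without overlap against 2 dpi and 30.6% against naive. Xbp1 read 12.96 and 13.03 in naive muscle, 13.04, 13.19 and 12.93 at 2 dpi and 13.87, 13.78 and 13.46 at 7 dpi, a rise of 1.63-fold at 7 dpi (adjusted p = 0.012) that was not called without Rag1-/- naive replicate 1 (adjusted p = 0.0686) or after scaling to a common median (adjusted p = 0.0833). Dnajb9 did not rise with them, at 9.29 and 8.98 in naive muscle, 8.43, 8.82 and 8.74 at 2 dpi and 8.76, 8.83 and 8.85 at 7 dpi. Its infected arrays were all below the naive ones, with log2 changes of -0.47 (adjusted p = 0.0611) and -0.33 (adjusted p = 0.166). Such a separation was common, as 23% of all genes at 2 dpi and 37% at 7 dpi were lower without overlap.

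Among the other members, Pdia4 read 10.32 and 10.09 in naive Rag1-/- muscle, 9.997, 10.28 and 10.31 at 2 dpi and 11.11, 11.13 and 11.07 at 7 dpi (1.87-fold at 7 dpi, adjusted p = 0.00292). Calr rose 1.92-fold at 7 dpi (adjusted p = 0.0425) and was not called without Rag1-/- naive replicate 1 (adjusted p = 0.237), nor without 4 other arrays of the set left out 1 at a time. Pdia3 was 1.97-fold higher with a wide spread, at 12.27 and 12.40 in naive muscle and 12.82, 13.81 and 13.32 at 7 dpi, and was not called against naive (adjusted p = 0.0631). Of the 3 members that passed only through the 7 dpi arrays, Pdia6, a further isomerase, was detected on 0 of 2 naive, 1 of 3 2 dpi and 2 of 3 7 dpi arrays. Manf, a secreted protein induced by ER stress, was detected on the 3 arrays at 7 dpi and on none before, and Sec23b of the COPII coat on 2 of 3 arrays at 7 dpi and on no other. No fold change is read from these 3 genes.

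Of the genes of entry and retrieval, 4 of 5 translocon and TRAP genes and 2 of 3 KDEL receptors were higher at 7 dpi in Rag1-/- muscle. The share of all genes that were higher was 17.6%. Sec61a1 read 8.97 and 9.07 in naive muscle, 9.17, 9.34 and 9.14 at 2 dpi and 10.40, 10.35 and 10.10 at 7 dpi, a rise of 2.40-fold (adjusted p = 0.000604). Ssr2 rose 2.20-fold (adjusted p = 0.000754), Ssr3 1.60-fold (adjusted p = 0.0078) and Sec61b 1.55-fold (adjusted p = 0.0136), and Ssr4 had a log2 change of 0.34 that did not pass (adjusted p = 0.209). Ssr3 was not called after scaling to a common median (adjusted p = 0.0688), nor Sec61b without Rag1-/- naive replicate 1 (adjusted p = 0.101), without Rag1-/- 7 dpi replicate 2 (log2 0.577) or without background correction (log2 0.34). Kdelr2 read 8.35 and 8.64 in naive muscle, 7.98, 8.64 and 8.52 at 2 dpi and 9.45, 9.43 and 9.59 at 7 dpi (1.99-fold, adjusted p = 0.00917), a rise not called without Rag1-/- naive replicate 1 (adjusted p = 0.0636). Kdelr1, the third receptor of the family, read 8.46 and 8.53 in naive muscle, 8.29, 8.66 and 8.09 at 2 dpi and 8.38, 8.43 and 8.56 at 7 dpi. Its groups overlapped throughout (log2 -0.04 ± 0.18 at 7 dpi, adjusted p = 0.89).

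Whether the early rise differed between WT and Rag1-/- muscle was tested as the difference of the changes from naive, with all 24 arrays normalised and fitted together. At 2 dpi the change of 5 of 26 members was smaller in Rag1-/-, against 3.29% of all 8987 genes, and 0 were larger, against 1.85%. The difference of log2 changes was -1.44 ± 0.28 for Hsp90b1 (adjusted p = 0.00982), -1.33 ± 0.33 for Dnajb9 (adjusted p = 0.0279), -1.24 ± 0.27 for Creld2 (adjusted p = 0.0157), -1.24 ± 0.35 for Pdia3 (adjusted p = 0.0453) and -1.11 ± 0.22 for Pdia4 (adjusted p = 0.0112). These are chaperones and isomerases, and none of the translocon, COPII or KDEL receptor genes was among them. Calr (-1.01, adjusted p = 0.104) and Xbp1 (-0.63, adjusted p = 0.0682) did not pass. At 7 dpi 0 of 26 were called, against 0.868% of all genes larger and 0.89% smaller (limma), with 5 members at an unadjusted p under 0.05 and log2 differences of -0.51 to 1.21. The 2 dpi calls rested on few arrays. Without Rag1-/- naive replicate 1 only Creld2 was called, when of all genes 81 were called in place of 462, and 3 members were called without WT naive replicate 2, without WT 2 dpi replicate 1 or in a fit of only the groups compared.

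**Figure D3:**
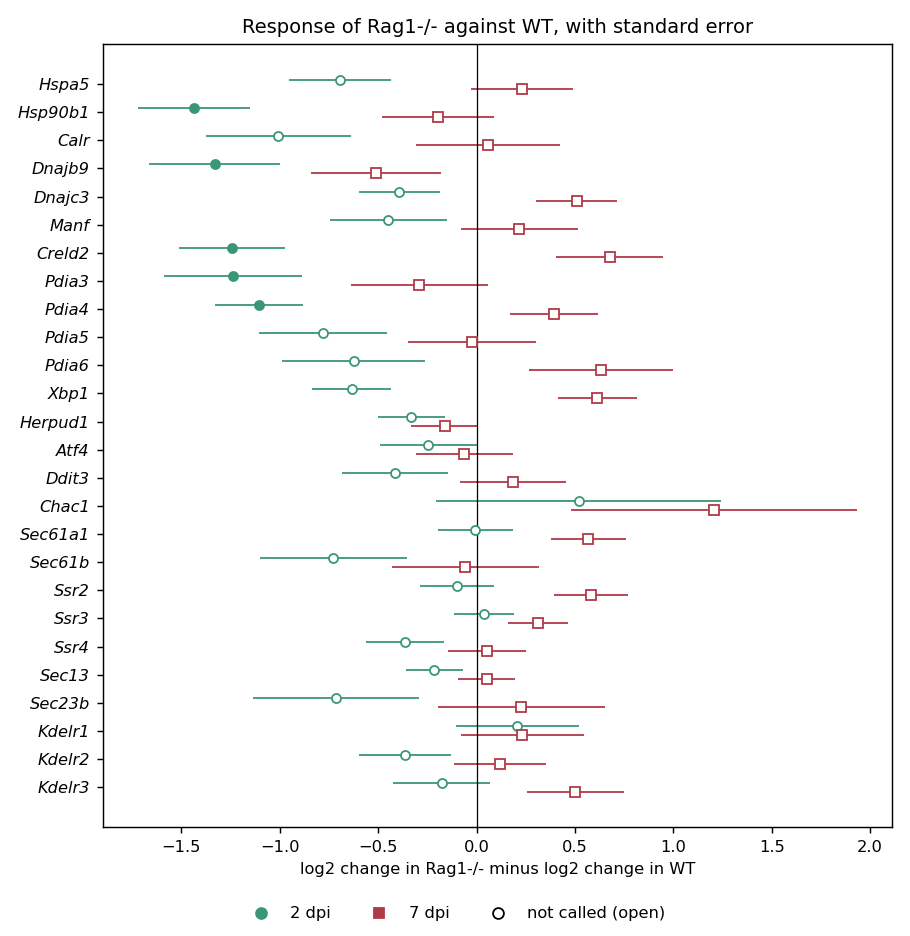
Difference between the log2 change of Rag1-/- and that of WT (x axis; negative values are smaller changes in Rag1-/-) for each of 26 genes (y axis) at 2 dpi (circles) and 7 dpi (squares), with standard errors; filled symbols were called. The 5 filled circles, Hsp90b1, Dnajb9, Creld2, Pdia3 and Pdia4, lie between -1.44 and -1.11, and no square is filled. Hspa5, Kdelr1, Manf, Pdia6 and Sec23b passed the filter through Rag1-/- arrays, and no WT change is read from them.

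The folding and transport genes were set against the Atf4 branch, of which Atf4, Ddit3 and Chac1 were tested and Trib3 was not detected. At 7 dpi the median log2 change of the folding and transport genes was 0.75 in Rag1-/- (23 genes, or 0.73 over those detected on all 8 arrays), 0.50 in WT (18 genes) and 0.50 in PHIL (18 genes). That of the 3 Atf4 branch genes was -0.37 (Ddit3) in Rag1-/-, -0.54 (Ddit3) in WT and -0.15 (Atf4) in PHIL, each 1 gene's value, where the median of all genes was -0.09, -0.06 and -0.07. After scaling to a common median these values were 0.82, 0.92 and 0.93 for the folding and transport genes and -0.22, 0.05 and 0.34 for the Atf4 branch, where in WT and PHIL the median of all genes shifted to 0.38 and 0.40. The median of 3 genes also moved with single arrays, to -0.11 in Rag1-/- without Rag1-/- 7 dpi replicate 1 and to -0.59 in PHIL without PHIL naive replicate 2, and with no filter on detection that of the folding and transport genes was 0.30 in PHIL. None of the 3 Atf4 branch genes was called higher in any of the 9 comparisons between times. As only 6.8% to 17.6% of all genes were higher in these comparisons, 3 genes are too few to read this count as particular to the branch. After scaling to a common median Atf4 (log2 0.604, adjusted p = 0.023) and Ddit3 (log2 0.855, adjusted p = 0.0067) were called higher in WT at 2 dpi, where the median of all genes shifted to 0.313.

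Atf4, the factor itself, is controlled mainly at translation, so that its transcript reads only part of its activity. It read 8.98 and 8.99 in naive WT muscle, 9.33, 9.09 and 9.13 at 2 dpi and 8.95, 9.11 and 8.72 at 7 dpi. Its log2 changes from naive lay between -0.15 and 0.19 in the 3 strains and none passed. Ddit3 encodes a factor of stress-induced cell death. It read 7.79 and 7.81 in naive WT muscle, 8.40, 8.02 and 8.16 at 2 dpi and 7.19, 7.66 and 6.92 at 7 dpi. The arrays stood above naive at 2 dpi (log2 0.39, adjusted p = 0.121) and below it at 7 dpi (-0.54, adjusted p = 0.0347), as held for 27.9% and 35.6% of all genes. Only the fall of Ddit3 by 0.94 from 2 dpi to 7 dpi was called (adjusted p = 0.00092). In PHIL it read 7.601 and 7.84 in naive muscle, 7.66, 7.94 and 7.96 at 2 dpi and 7.27, 6.91 and 6.85 at 7 dpi, 1.63-fold lower at 7 dpi than in naive muscle (adjusted p = 0.00988). This fall of Ddit3 was not called under 7 of 29 alternatives, namely without PHIL naive replicate 2 (adjusted p = 0.0865), without PHIL 7 dpi replicate 2 (log2 -0.578), with the other probe (-0.528), without background correction (-0.457), with the authors' normalised values (-0.453), with an offset of 50 (-0.585) and after scaling to a common median (-0.107, adjusted p = 0.726). The falls from 2 dpi to 7 dpi were not called with the other probe (log2 -0.555 in WT and -0.373 in PHIL) or without PHIL 7 dpi replicate 2, which changed the probe used (-0.553 and -0.423), nor in PHIL without background correction, with the authors' normalised values or after scaling to a common median (-0.551, -0.548 and -0.575). In Rag1-/- it read 10.63 and 10.68 in naive muscle and 10.31, 10.30 and 10.26 at 7 dpi, a change of -0.37 that was not called (adjusted p = 0.108). Its probes did not wholly move alike. The probe used in the Rag1-/- set gave -0.06 in WT at 2 dpi, where the other gave 0.39, and -0.62 at 7 dpi.

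Chac1, which degrades glutathione, varied widely between mice of 1 group. It read 11.90 and 10.86 in naive WT muscle, 9.53, 10.24 and 10.27 at 2 dpi and 9.83, 9.05 and 9.92 at 7 dpi. All infected WT arrays were below both naive arrays, as held for 33.7% of all genes at 2 dpi and 35.6% at 7 dpi. Chac1 levels were 2.57-fold lower at 2 dpi (log2 -1.36 ± 0.43, adjusted p = 0.0225) and 3.43-fold lower at 7 dpi (adjusted p = 0.00443). Neither change was called without WT naive replicate 1 (adjusted p = 0.223 and 0.0702), the array with the highest level, nor that at 2 dpi without WT 2 dpi replicate 1 (adjusted p = 0.074). In PHIL the groups overlapped, at 10.39 and 9.35 in naive muscle, 8.99, 9.31 and 10.10 at 2 dpi and 9.18, 9.97 and 10.11 at 7 dpi. In Rag1-/- it spanned 10.26 to 12.41 at 7 dpi, around the naive values of 12.26 and 11.62 (log2 -0.61 ± 0.54, adjusted p = 0.431).

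**Figure D4:**
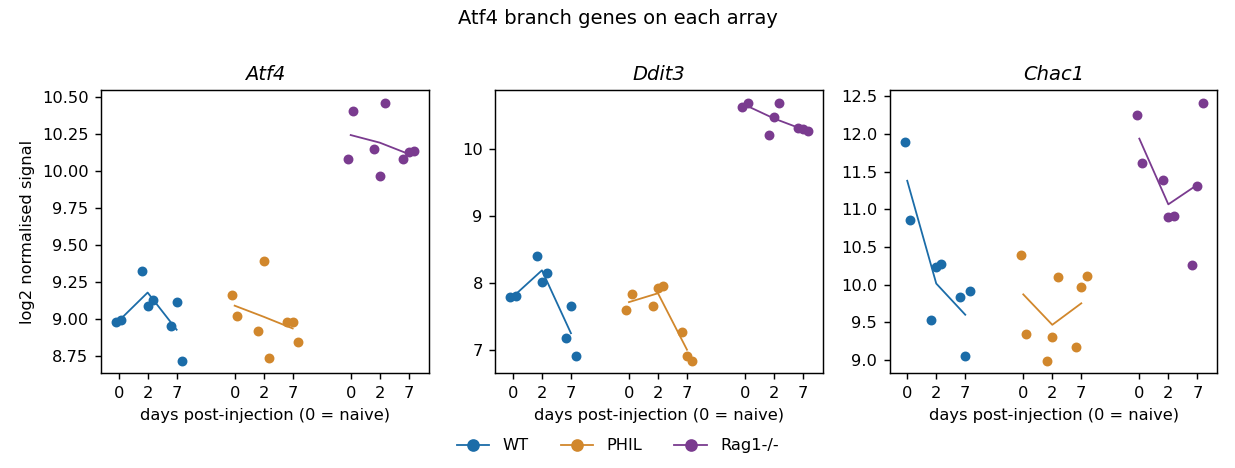
Log2 normalised signal (y axis) of Atf4, Ddit3 and Chac1 on each array, against days post injection (x axis; 0 stands for naive); points are arrays and lines join group means. Ddit3 lies lowest at 7 dpi in WT and PHIL, and the 3 Chac1 arrays of Rag1-/- at 7 dpi span 10.26 to 12.41; Rag1-/- was normalised apart from the other strains.

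Other genes of the same pathways were counted from lists written from general knowledge, with earlier results of these data known. Of 13 further folding enzymes tested, 7 were higher and 0 lower in Rag1-/- at 7 dpi (median log2 0.85), 5 and 0 in WT and 5 and 0 in PHIL. Of all genes, 17.6%, 16.3% and 14.9% were higher in these comparisons. The 7 in Rag1-/- include Rcn3, which passed the filter there only through infected arrays, so that the filter set its direction against naive. Fkbp11, a prolyl isomerase of the secretory pathway, was 2.99-fold higher in Rag1-/- (adjusted p = 0.000148), 1.98-fold in WT (adjusted p = 4.35e-05) and 1.59-fold in PHIL (adjusted p = 0.000929) at 7 dpi. At 2 dpi it was 2.00-fold higher in WT (adjusted p = 5.39e-05) and not called in the other strains. Prdx4, the ER peroxiredoxin, was 2.82-fold higher in Rag1-/-, 2.15-fold in WT and 1.69-fold in PHIL at 7 dpi (adjusted p = 0.000374, 1.54e-05 and 0.000365). Rcn3, a calcium-binding ER protein, was detected on 0 of 2 naive, 2 of 3 2 dpi and 3 of 3 7 dpi arrays both in Rag1-/- and in WT, so that no fold is given, and in PHIL, where every array detected it, its log2 change at 7 dpi was -0.31 and not called.

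Of 20 genes for signal peptide cleavage, the translocon and glycan transfer tested in Rag1-/-, 6 were higher and 0 lower at 7 dpi, against 17.6% and 14.9% of all genes, led by Spcs3 of the signal peptidase (2.05-fold, adjusted p = 0.000666). Of 18 tested in WT and PHIL, 4 in each were higher at 2 dpi, against 13.1% of all genes in WT and 10.6% in PHIL. At 7 dpi none was higher in WT or PHIL, against 16.3% and 14.9%, and 1 was lower in PHIL, against 11.6%. Of 22 ER-Golgi transport genes tested in Rag1-/-, 3 were higher at 7 dpi, against 17.6% of all genes. These were the transcription factor Creb3l2 (2.09-fold, adjusted p = 0.00487), the cargo receptor subunit Mcfd2 (1.98-fold, adjusted p = 0.000832) and Tmed3 (1.78-fold, adjusted p = 0.00179). Creb3l2 was also higher at 7 dpi in WT (1.91-fold, adjusted p = 0.000298) and PHIL (1.71-fold, adjusted p = 0.00123), and at 2 dpi its log2 change was between -0.34 and 0.18 in the 3 strains. Of 8 ERAD genes tested, Edem2, which trims mannose from misfolded glycoproteins, was the 1 gene called at 7 dpi in Rag1-/- (2.20-fold, adjusted p = 0.00107), against 17.6% of all genes higher. None was called in WT or PHIL at either time, where 10.6% to 16.3% of all genes were higher and 7.94% to 11.8% lower. The list is too short to read these counts as a lack of response.

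Of 19 targets of PERK, Ire1 and Atf4 tested in Rag1-/-, 7 were higher and 2 lower at 7 dpi, against 17.6% and 14.9% of all genes. Of 18 tested in the other set 7 were higher and 0 lower in WT, against 16.3% and 11.8%, and 6 higher and 2 lower in PHIL, against 14.9% and 11.6%. The median log2 change of these targets was 0.27 in Rag1-/-, -0.07 in WT and 0.40 in PHIL, where that of all genes was -0.09, -0.06 and -0.07. The counts of higher genes include Mthfd2, which in each set passed the filter only through the 7 dpi arrays, so that the filter set its direction. Slc7a5, an amino acid transporter that Atf4 induces, was 9.27-fold higher in Rag1-/- (adjusted p = 0.000103), 5.80-fold in WT (adjusted p = 1.39e-09) and 5.19-fold in PHIL (adjusted p = 3.5e-09) at 7 dpi. It was also higher at 2 dpi, with log2 changes of 1.21, 0.96 and 0.85. Nupr1, a stress-induced nuclear protein, was 4.05-fold higher in Rag1-/-, 3.02-fold in WT and 2.59-fold in PHIL at 7 dpi and was called in none at 2 dpi. Mthfd2, a mitochondrial folate enzyme, was detected on no naive array of any strain and on 2 of 3 Rag1-/-, 2 of 3 WT and 3 of 3 PHIL arrays at 7 dpi. Shmt2, its neighbour in that pathway, had log2 changes at 7 dpi of -0.60 in Rag1-/- and -0.74 in PHIL (both called) and -0.58 in WT (under the fold threshold). Vldlr was 3.16-fold lower in Rag1-/- at 7 dpi (adjusted p = 0.008), where it was detected on only 1 of 3 arrays. In WT and PHIL, where every array detected Vldlr, its log2 changes at 7 dpi were -0.56 and -0.48 and were not called.

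Markers of other cells moved in the same comparisons. Of 9 macrophage and monocyte markers with a probe, 7 were detected in naive Rag1-/- muscle, 9 at 2 dpi and 8 at 7 dpi, and their summed level was 7962 to 9855, 19050 to 33940 and 33990 to 49470. In WT it was 2215 to 2464, 8461 to 9480 and 9125 to 11240, and in PHIL 2997 to 3387, 9344 to 10070 and 11270 to 14210. The summed level of 9 fibroblast markers, of which 8 were detected in every group and Postn in none, was 51420 to 60520 in naive Rag1-/- muscle, 49700 to 72300 at 2 dpi and 58680 to 66030 at 7 dpi. In WT it was 16910 to 20760, 21410 to 22940 and 22650 to 27430, and in PHIL 21620 to 24550, 22670 to 23780 and 22550 to 24310. The 9 muscle markers with a probe were detected in every group, at 411600 to 428100 in naive and 376700 to 400800 at 7 dpi Rag1-/- muscle, 201000 to 212100 and 188300 to 191300 in WT, and 191600 to 201700 and 166100 to 190600 in PHIL. T cell markers rose from 111.1 to 119 in naive WT muscle to 538.6 to 854.4 at 7 dpi and from 102.6 to 105.1 to 1132 to 1724 in PHIL. The part of these cells in the changes of the ER genes was not tested. Of 9 B and plasma cell markers with a probe, Cd79a, Ms4a1, Jchain, Tnfrsf17, Prdm1 and Derl3 were detected in no group of any strain. The other markers of that list are not described here, so that B and plasma cells cannot be called absent from these samples.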

How the data were processed

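Diaphragm RNA of 24 mice was measured on 1 array each. The authors deposited mean bead signals (raw linear intensity, GenomeStudio 1.8) and the array's detection p-value of each probe, for 25697 probes, and also their own normalised intensity values from lumi. Groups came from the sample labels, and replicates are separate mice. The platform annotation gives 23978 probes 1 gene and 1719 none.

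Background was corrected by neqc (limma 3.58.1, R 4.3.3) using detection p, with an offset of 16 before quantile normalisation and log2. This was done apart for the 8 Rag1-/- and the 16 WT and PHIL arrays, and once for all 24 to compare Rag1-/- with WT responses. A gene was read by its probe of highest interquartile range among those detected on 2 or more arrays. limma was fitted to all genes. p was adjusted over the 3 Rag1-/- comparisons together and over each other comparison alone, and a call needed an adjusted p of at most 0.05 and a log2 change of at least 0.59. No fold is given for a gene undetected on every array of 1 group. Marker levels are sums of linear normalised signals over markers detected in the set. The members and lists were chosen with earlier results of these data known. All members are named, and non-members only if among the 3 largest called changes in a direction of their list in Rag1-/- at 7 dpi. The procedure was tested on simulated data. The number of arrays limits the precision.

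Alternatives were other background corrections, scalings, offsets, filters, probe choices, variance models and thresholds, separate fits of the groups, replicate number as a block, Eif2s3y as a covariate and each array left out. A BeadChip block was not fitted, as no chip is named in the sources used here. Promoters came from RefSeq (GRCm38.p6), where Atf6, Ssr2, Manf, Kdelr2, Sec61a1 and Hyou1 were not matched.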

Additional observations from a re-analysis of the deposited data

Results flagged for a closer look

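At 2 dpi the change from naive differed between Rag1-/- and WT muscle for 5 genes, by a test of the difference itself in limma. The difference of log2 changes was -1.44 for Hsp90b1, -1.33 for Dnajb9, -1.24 for Creld2, -1.24 for Pdia3 and -1.11 for Pdia4, each smaller in Rag1-/-. Only Creld2 kept its call without Rag1-/- naive replicate 1. Pdia3 was not called under 22 of 37 alternatives with a 1.5-fold threshold. Groups of 2 or 3 arrays were too small for a search for outlying arrays.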

How the results depend on the processing

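Counts below are of ER genes called. Of 80 called pairs of gene and comparison, 38 were called under every alternative that kept the 1.5-fold threshold, and 1 changed sign, Sec23b in Rag1-/- at 7 dpi (log2 -0.159 with Eif2s3y as a covariate), which was not detected on naive arrays. That covariate left 3 genes of 15 in Rag1-/- at 7 dpi against naive, 6 of 14 against 2 dpi, and 4 of 7 in WT at 7 dpi against 2 dpi. In the Rag1-/- set the Eif2s3y signal was higher on both naive arrays than on any infected array, so that there the covariate cannot be told apart from infection. The cause was not tested. At a 2-fold threshold the counts were 7 and 6 in Rag1-/- at 7 dpi against naive and 2 dpi, 4 and 1 in WT, and 4 and 2 in PHIL. With no fold threshold they were 13, 14 and 11 in WT (2 dpi and 7 dpi against naive, 7 dpi against 2 dpi) and 11 in PHIL at 2 dpi and 11 at 7 dpi against 2 dpi. Without background correction, or with the authors' normalised values, 3 genes were called in WT and 3 in PHIL at 7 dpi against 2 dpi, and with an offset of 50, 3 in WT. Scaling to a common median gave 17 in WT at 2 dpi, 14 in WT at 7 dpi, 12 in PHIL at 2 dpi and 9 in the comparison of Rag1-/- and WT responses at 2 dpi. The median of all genes then shifted to 0.313, 0.381, 0.195 and -0.295 on the log2 scale. A fit of only the groups compared gave 3 in that comparison. The replicate block gave 1 in Rag1-/- at 2 dpi, where 0 were called without it, and 4 in the response comparison at 2 dpi, and moved no other count by over 1.5 times. That 1 gene was Pdia6, which was detected on no naive array and on 1 of 3 arrays at 2 dpi. Arrays with the same number share only a number (correlation of deviations -0.185 to 0.143 among Rag1-/- and -0.176 to 0.222 among WT and PHIL arrays), and 1 of 8 and 7 of 16 arrays correlated best with their own number.

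With each array left out in turn, counts against naive were 0 to 1 (2 dpi) and 9 to 16 (7 dpi) in Rag1-/-, 7 to 9 and 8 to 11 in WT, and 6 to 8 and 8 to 10 in PHIL. Counts at 7 dpi against 2 dpi were 12 to 17, 3 to 9 and 4 to 6. The response comparison of Rag1-/- and WT at 2 dpi gave 1 to 6, and 0 at 7 dpi. The 1 call in Rag1-/- at 2 dpi came without 2 dpi replicate 1 and was Manf, which was detected on no naive and no 2 dpi array. All comparisons of PHIL with WT gave 0 throughout (limma).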
